A study of Homo sapiens with 12 samples.

Results

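The plasminogen activator system was examined in HCC827 cells, a human cell line from a lung adenocarcinoma with a mutant, active EGFR, and in 3 kinds of cells made from it. Its members were taken as all probe sets (the groups of oligonucleotides that report on a transcript) whose platform annotation gives a single symbol among PLAU, PLAUR, PLAT, SERPINB2 and SERPINE2. This gave 7 of the 22215 probe sets tested, for 4 of the 5 genes: 2 for PLAU, 3 for PLAUR, 1 for PLAT and 1 for SERPINE2. No probe set carried the symbol SERPINB2 in the annotation used, so SERPINB2 was not analysed here. The 12 arrays fall into 4 groups of 3. ERC4 cells carry a label of erlotinib resistance (erlotinib blocks the kinase activity of EGFR) and were set against parental HCC827 cells, both grown in RPMI with 5% FBS and antibiotics. Esh9-1 cells are HCC827 cells that received a lentivirus with an shRNA against EGFR, and were set against HCC827NT cells, which received a lentivirus with a non-target shRNA. Both of these grew in the same medium with 5 ug/ml puromycin added. All ERC4 arrays come from 1 resistant line and all Esh9-1 arrays carry 1 shRNA label, so what belongs to that line or shRNA and what belongs to resistance or EGFR depletion cannot be told apart. A resistance label stands on all 12 samples, the parental ones included, so groups were taken from the titles. The labels do not say whether replicates came from separate cultures, so the p-values rest on a spread that may be technical only.

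Plasminogen is a circulating zymogen that is cleaved to plasmin, a broad serine protease that degrades fibrin and matrix proteins and activates other proteases. The cleavage is made by the urokinase-type activator, encoded by PLAU, which works mainly at the cell surface bound to its GPI-anchored receptor, encoded by PLAUR, and by the tissue-type activator, encoded by PLAT, which works mainly on fibrin. SERPINE2 encodes protease nexin-1, a secreted serpin that traps thrombin, urokinase, tissue-type activator and plasmin in covalent complexes, which cells then take up through receptors of the LDL receptor family. In carcinoma cells the urokinase arm is known for its part in invasion.

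The sequences before the start sites of the 3 genes whose transcripts changed are shown so that their make-up can be set beside the direction of change. They are the 250 bases upstream of a start site, 5′ to 3′ on the strand of the gene, from the RefSeq annotation of GRCh38.p14, with motif matches in capitals. Each of the 3 genes matched the promoter table, with 1 window for PLAUR and 2 each for PLAU and SERPINE2. Which start site is used in these cells was not measured.
PLAUR, chr19:43670170-43670419, minus strand: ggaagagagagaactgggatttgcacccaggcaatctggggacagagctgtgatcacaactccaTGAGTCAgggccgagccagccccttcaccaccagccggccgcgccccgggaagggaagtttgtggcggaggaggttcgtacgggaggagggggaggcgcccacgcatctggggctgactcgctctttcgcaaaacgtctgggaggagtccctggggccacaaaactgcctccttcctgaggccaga
PLAU, chr10:73910882-73911131, plus strand: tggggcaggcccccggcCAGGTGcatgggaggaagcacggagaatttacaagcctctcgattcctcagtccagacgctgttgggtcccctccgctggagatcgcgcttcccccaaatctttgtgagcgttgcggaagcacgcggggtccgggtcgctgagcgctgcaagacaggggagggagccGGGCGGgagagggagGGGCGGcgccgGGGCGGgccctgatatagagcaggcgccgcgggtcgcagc
SERPINE2, chr2:224031479-224031728, minus strand: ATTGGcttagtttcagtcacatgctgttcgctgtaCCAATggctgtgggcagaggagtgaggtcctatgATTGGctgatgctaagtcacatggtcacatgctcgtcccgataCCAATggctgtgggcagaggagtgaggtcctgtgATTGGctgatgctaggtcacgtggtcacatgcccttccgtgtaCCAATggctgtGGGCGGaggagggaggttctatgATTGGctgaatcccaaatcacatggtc
Motifs were searched on both strands, and none overlapped another in these windows. They were the AP-1 site (TGAGTCA), the GC box (GGGCGG), the CCAAT box spelled as its name, and the TATA box (TATAAA). An E-box (CACCTG) and the TEAD site (GGAATG) were searched as well. In PLAUR the capitals mark 1 AP-1 site that begins 186 bases before the start site, a motif held by 4.2% of the 35116 windows of this length. In PLAU they mark 3 GC boxes and 1 E-box. At least 3 GC boxes stand in 13.9% of windows and CACCTG in 17.5%. In SERPINE2 they mark 7 copies of CCAAT, 4 of them read on the opposite strand, and 1 GC box. Only 7 of all windows (0.0199%) held 7 or more copies of CCAAT, while 32% held at least 1. The copies lie in a stretch of repeated sequence and are not independent. The counts of 7 and 3 used for these shares are those of the printed windows. The other PLAU window had 1 CCAAT. The other SERPINE2 window, whose start site is nearer the 5′ end of the gene, had 2 GC boxes and 0 copies of CCAAT. Neither the TATA box nor the TEAD site was found in any of the 5 windows. These matches describe the letters of the windows and not binding.

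Array medians lay between 50.0 and 53.0 intensity units in the ERC4 and parental arrays and between 141 and 143 in the Esh9-1 and HCC827NT arrays. Each comparison was therefore fitted within its own set, and levels are not compared across sets except by rank within an array. Replicate arrays correlated at 0.992 or above across probe sets. The brightest EGFR probe set fell by 1.30 ± 0.07 on the log2 scale (limma standard error, SE) in Esh9-1 against HCC827NT (limma adjusted p = 9.2e-07), and gave 0.21 ± 0.08 in ERC4 against parental (adjusted p = 0.051), and was called higher there under 6 of 10 alternatives. Another 3 of the 6 EGFR probe sets were called higher in ERC4, with log2 fold changes from 0.26 to 0.66 (limma adjusted p = 0.00016 to 0.023). All 7 measured epithelial markers, among them EPCAM and the keratins KRT8 and KRT18, were present and lower in both comparisons, with summed log2 levels of 12.96 to 13.03 in ERC4 against 14.18 to 14.20 in parental cells and 13.37 to 13.43 in Esh9-1 against 15.85 to 15.88 in HCC827NT. Of the 5 endothelial and 4 leukocyte markers, all but TEK in the ERC4 set lay under the array medians in both groups of each comparison, as did 5 of 7 fibroblast markers in the ERC4 set and 6 of 7 in the Esh9-1 set. Of the fibroblast markers 1 was higher and 5 lower in ERC4, and 1 higher and 1 lower in Esh9-1, where the lower count was 0 without HCC827NT replicate 1 or Esh9-1 replicate 2 or 3. The higher one was LUM in both, which rose by 2.56 ± 0.06 in Esh9-1 (mean log2 levels 6.78 and 4.22, both under the array medians; limma adjusted p = 3.7e-09). The summed log2 levels of the list were 8.37 to 8.48 in ERC4 against 8.71 to 8.76 in parental cells, and 9.96 to 10.02 in Esh9-1 against 9.92 to 10.05 in HCC827NT. Their part in the results was not tested. Of the 3 lung lineage markers measured, 1 was higher and 1 lower in ERC4, and 0 were higher and 3 lower in Esh9-1. The lower count in ERC4 was 0 with the replicate block, after median centring, and without parental replicate 2 or 3 or ERC4 replicate 2 or 3. Added hybridisation controls averaged a log2 level of 9.48 ± 0.07 in ERC4 and 11.04 ± 0.15 in parental arrays, and 11.92 ± 0.06 in Esh9-1 and 11.37 ± 0.10 in HCC827NT arrays (SD, n = 3 each). The 3′ minus 5′ log2 signal of the ACTB controls was 1.07 ± 0.15 in Esh9-1 and 0.20 ± 0.03 in HCC827NT arrays, and 0.19 ± 0.04 in ERC4 and 0.22 ± 0.05 in parental arrays. For the GAPDH controls it was 0.30 ± 0.08 in Esh9-1 and -0.05 ± 0.02 in HCC827NT arrays. In ERC4 and parental arrays the GAPDH values were -0.08 ± 0.03 and 0.06 ± 0.03. The hybridisation controls thus moved in the same direction as PLAUR and the brighter PLAU probe set in both comparisons, and against SERPINE2 in ERC4. Their part in these results was not tested, and neither was that of the ACTB and GAPDH differences.

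**Figure D1:**
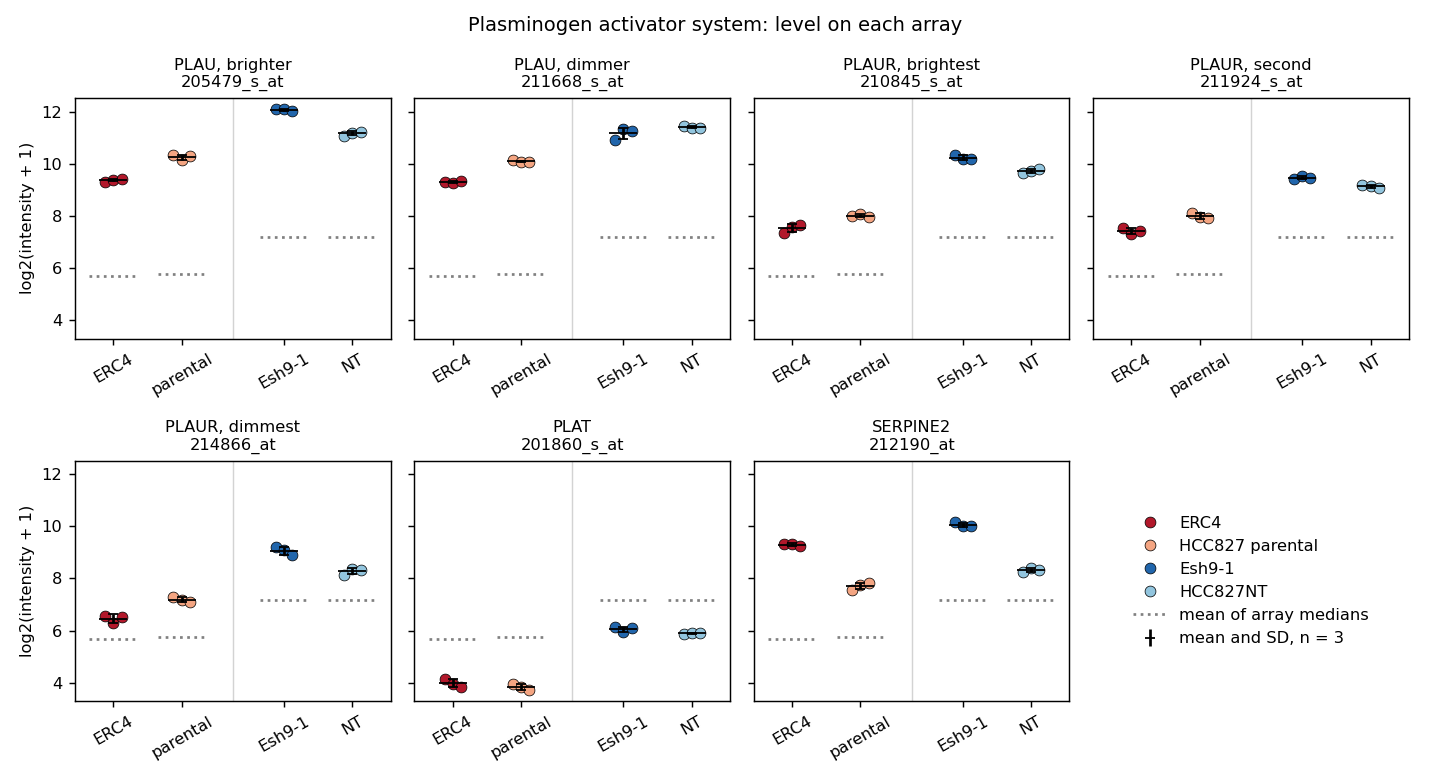
Level of each of the 7 probe sets, as log2(intensity + 1), on each of the 12 arrays (points), with the mean and SD of each group of 3 and the mean of its array medians (dotted). The 3 ERC4 points of PLAU and PLAUR lie below the 3 parental ones in every panel, PLAT lies under the dotted line in all groups, and SERPINE2 lies higher in ERC4 than in parental and higher in Esh9-1 than in HCC827NT arrays.

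PLAU, the urokinase gene, was lower in ERC4 than in parental cells by both of its probe sets. The brighter had intensities of 634, 669 and 671 in ERC4 arrays against 1281, 1133 and 1240 in parental arrays. Every ERC4 array lay below every parental array. The log2 fold change, on log2(value + 1) throughout, was -0.89 ± 0.08 (SE), a 1.85-fold decrease (limma, Benjamini-Hochberg adjusted p = 2.1e-05 over all probe sets). The dimmer had 621, 614 and 639 in ERC4 against 1115, 1080 and 1078 in parental arrays. Its change of -0.80 ± 0.07 (limma adjusted p = 2e-05) was close to that of the first. The log2 difference between the 2 probe sets on the same array was 0.07 ± 0.05 in ERC4 and 0.16 ± 0.08 in parental cells (SD, n = 3 each), and the groups overlapped.

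In Esh9-1 cells the 2 PLAU probe sets did not give the same answer. With the brighter, intensities were 4362, 4350 and 4179 in Esh9-1 arrays against 2155, 2341 and 2403 in HCC827NT arrays, an increase of 0.90 ± 0.07 on the log2 scale or 1.87-fold (limma adjusted p = 3.9e-06). With the dimmer they were 1931, 2583 and 2420 in Esh9-1 against 2787, 2643 and 2649 in HCC827NT arrays. All 3 Esh9-1 arrays lay below the 3 HCC827NT arrays there, and Esh9-1 replicate 1 was the lowest. The change of -0.23 ± 0.10 was not called (limma adjusted p = 0.094). It was called in a model of all 12 arrays (adjusted p = 0.049), with trend and robust settings (0.038) and without Esh9-1 replicate 2 (-0.32, adjusted p = 0.035), and was -0.11 without Esh9-1 replicate 1. The log2 difference of the first minus the second probe set was 0.91 ± 0.23 in Esh9-1 and -0.23 ± 0.12 in HCC827NT cells (SD, n = 3 each), a shift of 1.13 (exact permutation p = 0.1, two-sided, the smallest that 3 arrays against 3 allow). A direction for PLAU in Esh9-1 cells thus depends on the probe set. Brighter and dimmer refer to the mean over all 12 arrays. The brighter leads mainly through the Esh9-1 arrays, and in HCC827NT cells it was the lower of the 2 (mean log2 levels 11.17 and 11.40). The ACTB 3′ minus 5′ signal differed between the same groups, at 1.07 and 0.20, and that of GAPDH less so, at 0.30 and -0.05. Their part in the PLAU disagreement was not tested. Where on the transcript each PLAU probe set lies is not given in the sources used here.

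PLAUR, the urokinase receptor gene, was lower in ERC4 and higher in Esh9-1 cells by all 3 of its probe sets. The brightest had 161, 189 and 197 intensity units in ERC4 against 252, 266 and 246 in parental arrays. It fell by 0.48 ± 0.09 on the log2 scale, or 1.40-fold (limma adjusted p = 0.0021). It had 1293, 1161 and 1154 in Esh9-1 against 799, 846 and 895 in HCC827NT arrays, and rose by 0.51 ± 0.07, or 1.42-fold (adjusted p = 0.00036). Groups did not overlap in either comparison.

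The second PLAUR probe set had 185, 157 and 169 in ERC4 against 273, 248 and 239 in parental arrays. Its log2 fold change was -0.57 ± 0.09 (limma adjusted p = 0.00072). In Esh9-1 arrays it had 684, 739 and 698 against 581, 559 and 531 in HCC827NT arrays, and the log2 fold change was 0.34 ± 0.06 (adjusted p = 0.0018), the smallest of the 5 called increases among the members. The dimmest had 94.0, 76.6 and 91.5 in ERC4 against 154, 144 and 137 in parental arrays, and 590, 546 and 475 in Esh9-1 against 282, 329 and 322 in HCC827NT arrays. Its log2 fold changes were the largest of the 3 in size, at -0.73 ± 0.10 in ERC4 (adjusted p = 0.00024) and 0.78 ± 0.10 in Esh9-1 (adjusted p = 0.00011). The log2 signal of the dimmest minus the second on the same array was -0.40 ± 0.17 in Esh9-1 and -0.84 ± 0.17 in HCC827NT cells (SD, n = 3 each), without overlap (exact permutation p = 0.1, the smallest possible). The brightest minus the second overlapped between groups in both comparisons (exact permutation p = 0.6 in ERC4 and 0.3 in Esh9-1), and so did the dimmest minus the brightest in ERC4 (p = 0.3). Without overlap was the dimmest minus the second in ERC4 (-0.96 ± 0.08, against -0.80 ± 0.02 in parental cells). So was the dimmest minus the brightest in Esh9-1 (-1.17 ± 0.10, against -1.44 ± 0.07 in HCC827NT cells). Each had an exact permutation p of 0.1. The 3 probe sets shared the direction of change, and a difference in its size was not shown for the overlapping pairs.

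PLAT, the tissue-type activator gene, was dim on every array and not called in either comparison. Its probe set had 16.8, 14.3 and 13.3 intensity units in ERC4 against 14.4, 13.1 and 12.1 in parental arrays, and 69.0, 60.4 and 66.8 in Esh9-1 against 57.1, 58.2 and 59.6 in HCC827NT arrays. All of these lie under the median of their array. The log2 fold change was 0.15 ± 0.10 in ERC4 (limma adjusted p = 0.24; 95% interval -0.08 to 0.38) and 0.16 ± 0.07 in Esh9-1 (limma adjusted p = 0.08; 0.01 to 0.32). The Esh9-1 change was called under quantile normalization of the set (0.20, adjusted p = 0.036) and without Esh9-1 replicate 2 (0.22, adjusted p = 0.035). A signal this low leaves little room to see a change.

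SERPINE2, the protease nexin-1 gene, rose in both comparisons and changed the most of the members. Its probe set had 643, 638 and 604 intensity units in ERC4 against 188, 215 and 224 in parental arrays. The lowest ERC4 array stood well above the highest parental one. The increase was 1.59 ± 0.09 on the log2 scale, 3.01-fold (limma adjusted p = 1.2e-06). In Esh9-1 arrays it had 1137, 1035 and 1021 against 299.7, 335 and 323 in HCC827NT arrays. This was an increase of 1.73 ± 0.07, 3.33-fold (adjusted p = 1.1e-07), again with no overlap. By size of change, SERPINE2 ranked 193 in ERC4 and 384 in Esh9-1 among the 11963 genes, each taken by its brightest probe set. PLAU ranked 994 and 1310, by the probe set that rose in Esh9-1, and PLAUR 3018 and 2957.

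**Figure D2:**
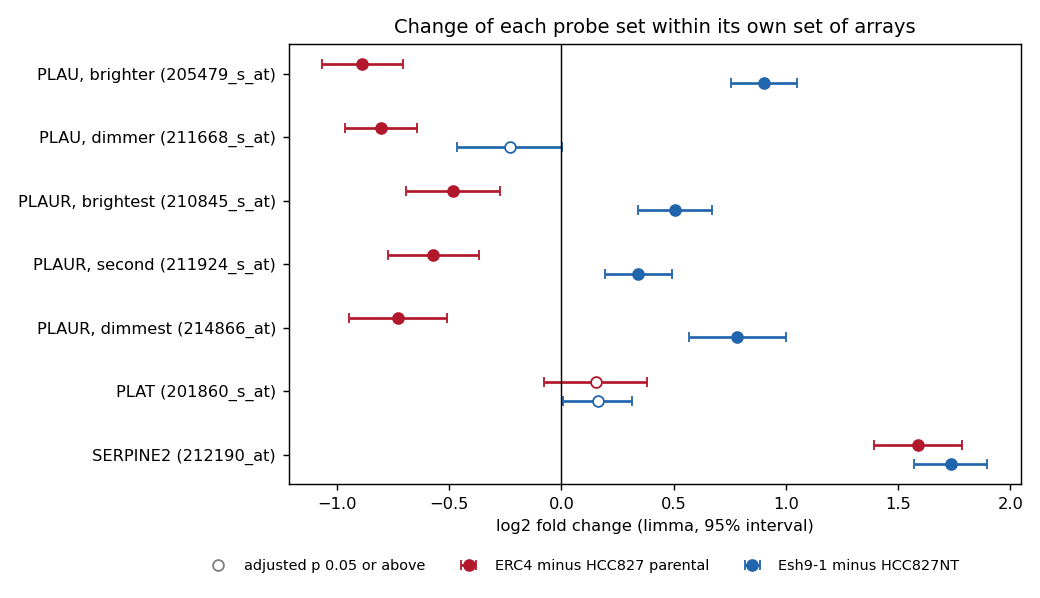
Log2 fold change of each probe set (points) with limma's 95% interval, ERC4 minus parental above and Esh9-1 minus HCC827NT below in each row. Open symbols have an adjusted p of 0.05 or above. PLAU and PLAUR lie left of 0 in ERC4, the PLAU probe sets part in Esh9-1 at 0.90 and -0.23, and SERPINE2 lies at 1.59 and 1.73.

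Of the 7 probe sets, 1 was called higher and 5 lower in ERC4, where 23.6% of all probe sets were called higher, 24.9% lower and 48.5% in either direction. In Esh9-1, 5 were called higher and 0 lower, where 24.5% of all were called higher, 25.9% lower and 50.3% in either direction. At an unadjusted p under 0.05 limma also gave 0 lower in Esh9-1, and 1 was called lower in the 12-array model and with trend and robust settings. The arrays of the groups did not overlap for 6 of 7 members in ERC4 (58.2% of all probe sets) and for 7 of 7 in Esh9-1 (58.8%). The median log2 fold change of the 7 was -0.57 in ERC4 and 0.51 in Esh9-1, against -0.06 and -0.03 over all probe sets. As 3 of the 7 report on PLAUR and 2 on PLAU, they are not independent, and both medians are values of PLAUR probe sets. By gene, each by its brightest probe set, 1 was higher, 2 lower and 1 not called in ERC4 (26% and 24.8% of all genes higher and lower). In Esh9-1, 3 were higher, 0 lower and 1 not called (26.2% and 26.1%). PLAU is among the higher ones there only by its brighter probe set, which leads mainly through the Esh9-1 arrays. By its dimmer probe set (-0.23) PLAU was not called, so the count depends on that choice. Of all calls in ERC4, 48.7% were higher, and 58.9% after median centring, which left the member calls as they were. About every second probe set was called, so a call by itself says little, and the sizes carry the description.

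The difference between the 2 effects, ERC4 minus parental less Esh9-1 minus HCC827NT, was tested in 1 model of all 12 arrays. It was called for all PLAU and PLAUR probe sets, 5 of the 7 members, all with the lower value in ERC4 (over all probe sets 23.9% were called higher, 23.5% lower and 47.4% in either direction). For PLAU it was -1.79 ± 0.10 with the brighter probe set (limma adjusted p = 4.1e-09) and -0.57 ± 0.13 with the dimmer (adjusted p = 0.002). For PLAUR it was -0.99 ± 0.12 with the brightest (adjusted p = 1e-05). SERPINE2 gave -0.15 ± 0.11, which was not called (limma adjusted p = 0.32; 95% interval -0.39 to 0.10). It was called after quantile normalization within each set (-0.34, adjusted p = 0.019) and turned to 0.17 when the ERC4 and parental values were stretched to the spread of the other set. The spread of log2 values (SD over probe sets) was 1.83 to 1.84 in parental, 1.94 to 1.96 in ERC4 and 2.24 to 2.27 in the other arrays. It thus differed between the sets and also between ERC4 and parental arrays. After quantile normalization within the set, the ERC4 change was -1.07 for the brighter PLAU probe set (reported -0.89). It was -0.69 for the brightest PLAUR probe set (reported -0.48) and 1.37 for SERPINE2 (reported 1.59). The part of the spread in these sizes was not tested.

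The balance of the inhibitor against its target protease and the receptor was followed as the log2 difference between probe sets on the same array, of which only the change between groups is read. SERPINE2 minus the brighter PLAU probe set was -0.07 ± 0.08 in ERC4 and -2.54 ± 0.20 in parental cells, a 5.56-fold shift towards SERPINE2. It was -2.01 ± 0.07 in Esh9-1 and -2.84 ± 0.05 in HCC827NT cells, a 1.78-fold shift (SD, n = 3 each). Taken with the dimmer PLAU probe set, the shifts were 5.25-fold in ERC4 and 3.90-fold in Esh9-1. Against the brightest PLAUR probe set, SERPINE2 shifted 4.20-fold in ERC4 and 2.34-fold in Esh9-1. None of these 6 shifts had overlapping groups. Each exact permutation p was 0.1, two-sided, the smallest possible, and 0.133 after Benjamini-Hochberg adjustment over the 16 such ratios computed. SERPINE2 thus moved up relative to PLAU and PLAUR in both comparisons. In ERC4 both PLAU probe sets and PLAUR fell as SERPINE2 rose, while in Esh9-1 the SERPINE2 increase was larger than that of PLAUR and of the brighter PLAU probe set, and the dimmer PLAU probe set was at -0.23 and not called.

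**Figure D3:**
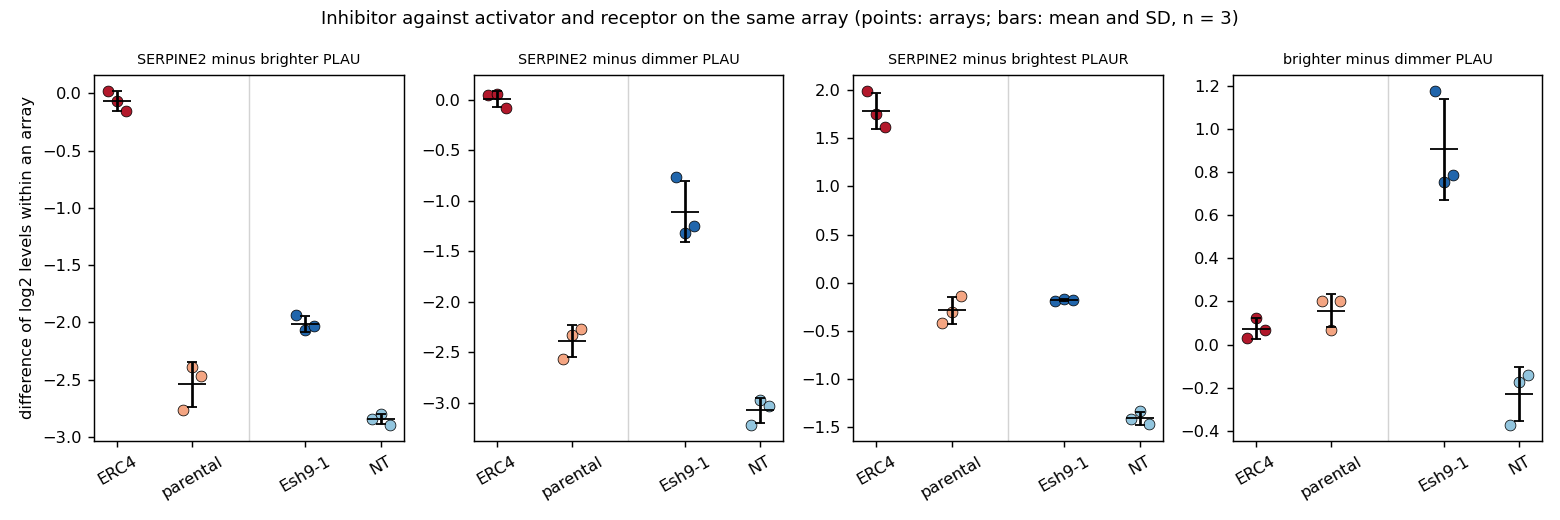
Difference of log2 levels between 2 probe sets on the same array (points) with the mean and SD of each group of 3. SERPINE2 minus PLAU and SERPINE2 minus PLAUR lie higher in ERC4 than in parental and higher in Esh9-1 than in HCC827NT arrays. The right panel shows the 2 PLAU probe sets parting in Esh9-1 arrays (0.91 against -0.23 in HCC827NT).

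Rank within an array, here of the brightest probe set of each gene, gives a view of all 4 groups, though the set of arrays and the group cannot be told apart across sets. By mean percentile among all probe sets of an array, PLAU stood at 97.2 in Esh9-1, 94.4 in HCC827NT, 94.1 in ERC4 and 97.4 in parental cells. The arrays of Esh9-1 (97.0 to 97.3) and parental cells (97.2 to 97.6) overlapped, and so did those of HCC827NT (93.9 to 94.7) and ERC4 (94.0 to 94.3). With the dimmer PLAU probe set neither pair overlapped. There Esh9-1 stood at 93.2 to 94.9 against 97.0 to 97.2 in parental cells. HCC827NT stood at 95.2 to 95.4 against 93.6 to 94.0 in ERC4. PLAUR stood at 88.5 in Esh9-1, 83.9 in HCC827NT, 78.0 in ERC4 and 86.0 in parental cells, with no overlap between neighbours in that order. This depended on the probe set. With the second PLAUR probe set, parental cells (85.2 to 87.2) stood above Esh9-1 (80.4 to 82.0). HCC827NT (76.1 to 77.9) and ERC4 (75.5 to 78.4) overlapped there. With the dimmest, Esh9-1 (74.2 to 77.7) overlapped parental cells (74.8 to 77.5), and HCC827NT (64.1 to 66.9) overlapped ERC4 (60.3 to 64.9). SERPINE2 stood at 93.8 in ERC4, 87.1 in Esh9-1, 82.9 in parental and 66.4 in HCC827NT cells. The order of all 4 groups for SERPINE2 was without overlap.

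Other genes of the system were taken from lists of their roles, each gene by its brightest probe set, of which 50.9% were called over all genes in ERC4 (26% higher, 24.8% lower) and 52.3% in Esh9-1 (26.2% higher, 26.1% lower). The 6 other inhibitors measured (SERPINA5, SERPINF2, SERPINI1, SERPINC1, A2M and CPB2) lay under the array medians in both groups of both comparisons. Of them 0 were higher and 1 lower in ERC4, and 0 were called in either direction in Esh9-1 by limma. SERPINF2, which encodes the main plasma inhibitor of plasmin, was the one called, at -0.46 ± 0.10 (limma adjusted p = 0.0053) with mean log2 levels of 4.81 in ERC4 and 5.27 in parental cells. In ERC4 the count of lower calls was 2 in the model of all 12 arrays and with trend and robust settings, and 3 with the replicate number as a block or without parental replicate 1.

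Plasminogen itself (PLG) was dim in all groups, and was called lower in ERC4 at -0.36 ± 0.10 (limma adjusted p = 0.015). That call ended after quantile normalization (adjusted p = 0.088) and without parental replicate 3, ERC4 replicate 1 or ERC4 replicate 2 (0.05 to 0.065). Of the 5 genes for plasminogen and its cell surface receptors, 2 were higher and 2 lower in ERC4, and 1 was higher and 1 lower in Esh9-1. ANXA2, whose product forms a plasminogen-binding complex with that of S100A10, fell in both, by 0.37 ± 0.08 in ERC4 (mean log2 levels 12.40 and 12.76; limma adjusted p = 0.0031) and by 0.58 ± 0.06 in Esh9-1 (13.69 and 14.26; adjusted p = 3.3e-05). S100A10 gave 0.01 ± 0.07 and -0.05 ± 0.06 and was not called in either. PLGRKT, encoding a transmembrane plasminogen receptor, rose by 0.32 ± 0.07 in Esh9-1 (limma adjusted p = 0.0049). In ERC4 it gave 0.28 ± 0.10 (adjusted p = 0.043), a call that ended without parental replicate 2 or 3 or any of the 3 ERC4 replicates (adjusted p = 0.058 to 0.15). For ENO1 (0.26 ± 0.07 in ERC4) its probe sets were called in opposite directions.

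Genes listed for the clearance of activator and inhibitor complexes moved in different directions. The list counts the chaperone gene LRPAP1 and the urokinase receptor-associated MRC2 beside the clearing receptors. Of the 6 measured, 2 were higher and 4 lower in ERC4, and 3 higher and 1 lower in Esh9-1. VLDLR, an endocytic receptor for urokinase and serpin complexes, rose in both, by 2.30 ± 0.12 in ERC4 (mean log2 levels 7.91 and 5.61; limma adjusted p = 9.4e-07) and by 0.76 ± 0.06 in Esh9-1 (7.94 and 7.18; adjusted p = 6.7e-06). LRP1, the other main receptor of this kind, fell by 0.76 ± 0.08 in ERC4 (6.76 and 7.51; limma adjusted p = 6.9e-05) and gave 0.01 ± 0.09 in Esh9-1 (adjusted p = 0.93). LRPAP1, the chaperone of these receptors, was lower in ERC4 (-0.50 ± 0.10) and higher in Esh9-1 (0.71 ± 0.07). LRP2, under the array medians in both groups, was another lower call in ERC4, at -0.40 ± 0.11 (limma adjusted p = 0.017). That call ended in 3 of the 6 fits with an array left out (adjusted p up to 0.073). IGF2R, the mannose 6-phosphate receptor gene, rose by 0.46 ± 0.09 in ERC4 (limma adjusted p = 0.002), which was 0.23 and not called after quantile normalization (adjusted p = 0.065). In Esh9-1 it was the 1 lower call, at -0.20 ± 0.07 (limma adjusted p = 0.034), which ended with the replicate block (adjusted p = 0.075) and without HCC827NT replicate 2 or 3 or Esh9-1 replicate 2 or 3 (0.086 to 0.11). MRC2, which encodes the urokinase receptor-associated protein, rose by 0.98 ± 0.06 in Esh9-1 (9.32 and 8.34; limma adjusted p = 1.6e-06) and had a log2 fold change of -0.35 ± 0.07 in ERC4, called lower (5.79 and 6.13; adjusted p = 0.0035).

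Partners of the urokinase receptor were taken as integrin genes and FPR1, a formyl peptide receptor gene. Of the 7 measured, 0 were higher and 2 lower in ERC4, and 5 were higher and 0 lower in Esh9-1. The integrin alpha genes ITGA3 and ITGA5 fell in ERC4, by 1.32 ± 0.07 (mean log2 levels 8.40 and 9.72; limma adjusted p = 1.1e-06) and by 0.85 ± 0.09 (6.99 and 7.85; adjusted p = 4.4e-05). Both rose in Esh9-1, ITGA5 by 1.76 ± 0.07 (10.32 and 8.57; adjusted p = 8.6e-08) and ITGA3 by 0.71 ± 0.07 (10.43 and 9.72; adjusted p = 2.3e-05). ITGAV, the alpha subunit of vitronectin receptors, rose by 1.38 ± 0.08 in Esh9-1 (11.48 and 10.10), and ITGB1 by 1.00 ± 0.06 (13.83 and 12.84). The log2 fold changes of ITGAV (0.26 ± 0.13) and ITGB1 (0.21 ± 0.08) in ERC4 were not called (limma adjusted p = 0.12 and 0.051). The count of higher calls in ERC4 was 1 under 5 of 9 alternatives, median centring and the model of all 12 arrays among them, and 2 without parental replicate 2.

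Of the 3 contact system proteases, F12, which encodes a protease that can activate plasminogen weakly, rose by 0.76 ± 0.08 in ERC4 (limma adjusted p = 8e-05) and fell by 0.66 ± 0.10 in Esh9-1 (adjusted p = 0.00048). KLKB1 and F11 lay under the array medians in both comparisons. Of the 3, 1 was higher and 2 lower in ERC4, and 0 were higher and 2 lower in Esh9-1. The lower count in Esh9-1 was 1 after quantile normalization and without HCC827NT replicate 1 or 3 or Esh9-1 replicate 1 or 2, where KLKB1 (-0.26 ± 0.09, limma adjusted p = 0.034) was no longer called (adjusted p = 0.058 to 0.11).

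Among 16 genes for transcription factors of the AP-1, ETS and NF-kB families and SP1, some of which are known to act on the PLAU or PLAUR promoter, 9 were higher and 3 lower in ERC4, and 6 higher and 4 lower in Esh9-1. FOSL1, which encodes the AP-1 subunit Fra-1, rose in both, by 0.93 ± 0.10 in ERC4 (limma adjusted p = 7e-05) and by 0.57 ± 0.06 in Esh9-1 (adjusted p = 4.2e-05). So did JUN, by 0.74 ± 0.11 and 0.79 ± 0.08, and ATF3, by 1.14 ± 0.08 and 0.80 ± 0.08. ELF3, an ETS factor of epithelia, fell in both, with log2 fold changes of -1.24 ± 0.10 in ERC4 and -2.15 ± 0.07 in Esh9-1 (limma adjusted p = 9e-06 and 3.3e-08). SP1 was dim and not called in ERC4 (limma adjusted p = 0.99), and gave -1.34 ± 0.17 in Esh9-1 (adjusted p = 0.00013). ETV5, an ETS factor gene, rose in both, by 0.94 ± 0.11 in ERC4 (limma adjusted p = 0.00013) and by 0.77 ± 0.07 in Esh9-1 (adjusted p = 1.2e-05).

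**Figure D4:**
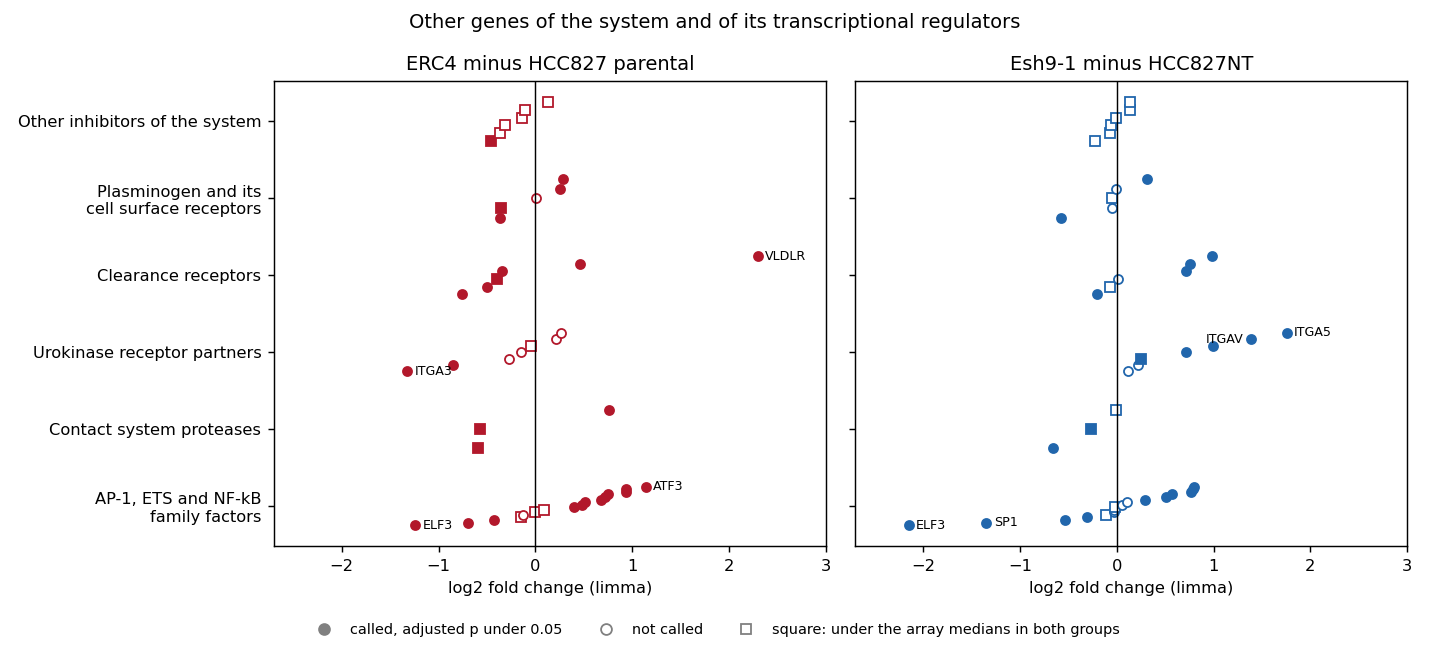
Log2 fold change of each measured gene of the 6 lists, ERC4 minus parental on the left and Esh9-1 minus HCC827NT on the right. Filled symbols were called at an adjusted p under 0.05, squares lay under the array medians in both groups, and names mark log2 changes of at least 1 in size. VLDLR at 2.30 stands out on the left, and ITGA5 at 1.76 and ELF3 at -2.15 on the right.

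The genes whose pattern was most like that of each member were found by Pearson's r over the 12 arrays after subtracting the mean of each set, among genes that changed by at least 1 on the log2 scale in either comparison. The values describe arrays that fall into 4 groups and share their sets, and carry no test. PLAU, by the probe set that rose in Esh9-1, was most like RGS10 (r = 0.993), FXYD5 (0.992) and IER3 (0.990). PLAUR was most like IER3 (0.968), SERPINA1 (0.961) and NT5E (0.956), so that IER3, an immediate early response gene, was near both. IER3 had log2 fold changes of -1.02 in ERC4 and 0.87 in Esh9-1. SERPINE2 was most like SH3BP4 (r = 0.997), CCN1 (0.996) and NRG1 (0.996). CCN1, which encodes a matricellular protein, changed by 1.90 in ERC4 and 2.14 in Esh9-1, and NRG1, which encodes an ERBB ligand, by 1.68 and 1.90. For the dim PLAT the nearest genes reached lower values, with USP12 at 0.808, AP1S2 at 0.765 and WARS2 at 0.744.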

How the data were processed

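Total RNA was measured on 12 expression arrays. The authors deposited 1 linear intensity per array for each of 22277 probe sets, and the submitters' processing notes name RMA. The sources used here give neither its version nor the arrays it was run on together. Values were taken to log2(value + 1), which understates fold changes of dim genes, and 62 control probe sets were left out. The platform annotation gave 1 symbol to 19070 probe sets, several to 1043 and none to 2164, and only the first were named. limma 3.58.1 (R 4.3.3) tested the group differences, with a fit of its own for each set of 6 arrays and 1 model of all 12 for the difference of effects. A call means a p under 0.05 after Benjamini-Hochberg adjustment across the 22215 probe sets tested, two-sided. A ± value is limma's SE for a log2 fold change and the SD (n = 3) for a level. Where a gene had several probe sets, the brightest over all arrays led. Dim means under the mean of the array medians of a group. The members, the gene lists and the settings were chosen with earlier results of these data known. Genes named outside the members are EGFR, cell type markers, at most 4 called genes of a list in each comparison with the largest changes, and the 3 genes most like each member. S100A10, LRP2, and the values in the comparison where a named gene was not called, were added after they were seen. The procedure was tested on simulated data. With 3 arrays in a group, their number sets the precision. The alternatives were a block for the replicate number, a model of all 12 arrays, trend and robust settings, quantile normalization within the set, median centring, other pseudocounts, a filter on dim probe sets, 1 probe set a gene, a threshold of 0.01, stretching of 1 set and leaving out each array. Figures were drawn with matplotlib 3.10.9.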

Additional observations from a re-analysis of the deposited data

How the results depend on the processing

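The directions and calls of PLAU, PLAUR and SERPINE2 by their brightest probe sets in both comparisons held under every alternative run. For PLAU that probe set leads mainly through the Esh9-1 arrays, where it rose, so its stability there does not settle a direction. The other PLAU probe set gave -0.23 in Esh9-1 and was not called in the reported fit (limma adjusted p = 0.094). Of 366 pairs of a member result and a setting, 350 kept direction and side of the threshold, 6 passed the threshold only under the alternative, 0 lost a call and 10 changed sign, all of the last in differences of effects that were not called. For PLAT in Esh9-1 the change was 0.20 and called after quantile normalization, and ranged from 0.12 to 0.22 as each array was left out. The PLAT difference of effects, -0.01, became 0.049 after quantile normalization, 0.056 after median centring and 0.021 with stretched values, and ranged from -0.096 to 0.058 as arrays were left out. The SERPINE2 difference of effects became -0.34 and called after quantile normalization and 0.17 with stretched values. Member probe sets called lower in Esh9-1 were 0 in the reported fit, 1 in the model of all 12 arrays and 1 with trend and robust settings, and 0 to 1 as arrays were left out. The cause of these changes was not tested. With 1 probe set a gene, fewer probe sets were tested and calls numbered 6217 in ERC4, 6410 in Esh9-1 and 5936 for the difference, against 10774, 11184 and 10541. Leaving out each array gave 8617 to 10325, 10011 to 10722 and 9699 to 10629 calls. With the replicate number as a block, calls were 10639, 10454 and 10321, and the brighter PLAU probe set kept -0.89 in ERC4 and 0.90 in Esh9-1. Samples of the same number deviated together with r of 0.01 to 0.07 in the first set and -0.14 to -0.03 in the second. The labels do not say whether they share more than a number, and so few arrays cannot decide it. Calls in ERC4 without dim probe sets were higher in 61.2% of cases. Without detection calls, signal over background cannot be given, and dim signal limits PLAT, PLG and the other inhibitors most.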
